A study of Mus musculus with 12 samples.

Results

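The 10 genes described here, Dapl1, Art4, Mir205hg, Anxa8, Trim29, Cbr2, Slco2a1, Camk4, Adam28 and Slc34a2, were chosen by their lower level in the vagina of Trp63 cKO mice than in that of Trp63 cHet mice, and because they belong to no single pathway. They are 10 of 11123 genes tested, and 21 of 45281 probes in the value table carry their symbols. All 10 genes had at least 1 probe that passed the filter on low values. The difference of cKO vagina from cHet vagina was used to choose them, so it is described for them without a test. The tests below concern the uterus, the sets of replicates and genes related to the 10. Each test of a member against the uterus shares cKO or cHet vagina arrays with the contrast that chose it. No such p is independent of that choice.

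RNA was measured on Illumina bead arrays of 1 colour in 12 pools, 4 per group, each made from 3 female mice of postnatal day 3 with a mixed background (C57BL/6, S129/5 and CD-1). The cKO vagina pools came from animals of genotype Trp63 flox/floxt ; Pax2-cre. The cHet vagina and cHet uterus pools came from animals of genotype Trp63 flox/wt ; Pax2-cre, so the controls too carried the Pax2-cre transgene and 1 floxed Trp63 copy. By its name the transgene removes floxed Trp63 in cells in which Pax2 sequences drive Cre, and whole organs were sampled, so cells without Cre contributed RNA. The replicates are pools and not single mice, so each test weighs a difference against the spread from pool to pool. Values are log2 normalised intensities after background correction and an offset of 16, so a difference on this scale understates that of a dim gene, and a level is not set against that of another gene.

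Trp63 encodes p63, the transcription factor of basal cells in stratified epithelia such as epidermis, and p63 is required for the newborn vaginal epithelium to become stratified instead of staying columnar like that of the uterus. The 10 genes have different known roles. Mir205hg is the host transcript of miR-205, a microRNA of stratified epithelia, Trim29 encodes a TRIM family protein of basal epithelial cells, Anxa8 encodes a calcium-dependent phospholipid-binding protein, and Dapl1 encodes a relative of death-associated protein. Cbr2 encodes a carbonyl reductase, Art4 a member of the ADP-ribosyltransferase family that in human carries the Dombrock blood group antigens, Camk4 a calcium- and calmodulin-dependent kinase, and Adam28 a membrane metalloprotease. Slco2a1 encodes a prostaglandin transporter and Slc34a2 a sodium-dependent phosphate cotransporter.

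miR-205 is the one regulatory RNA tied to these genes, and its mature sequences are shown because its seed defines which transcripts it can pair with. They come from RefSeq (GRCm38.p6) and are written 5′ to 3′ with the seed, bases 2 to 8, in capitals. The 5p arm lies at chr1:193507503-193507524 and the 3p arm at chr1:193507467-193507488, both on the minus strand and inside the Mir205hg gene at chr1:193506460-193510210. The array probe reads the host transcript and not the microRNA.
mmu-miR-205-5p: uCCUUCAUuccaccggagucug
mmu-miR-205-3p: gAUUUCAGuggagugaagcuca
Of 1738 mature mouse microRNAs in the table, 1, which is miR-205-5p itself, has the seed CCUUCAU.

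Start regions of 300 bases, from 250 before to 50 after the annotated start, were held by RefSeq for 7 of the 10 genes (all but Trim29, Camk4 and Adam28). The 3 of them with the largest difference between cKO and cHet vagina are shown, since their start regions are where a shared sequence would be looked for. Capitals mark every match on either strand to any of 5 searched motifs. The motif CATG is the core of sites bound by p63 and its relatives. The motif TATAAA is that of a TATA box, and CCAAT is that of the box named after it. The motif GGGCGG is that of a GC box, which Sp1 binds. The last motif, TGANTCA, is that of AP-1 sites. The regions are chr2:59484403-59484702 on the plus strand for Dapl1, chr6:136857551-136857850 on the minus strand for Art4 and chr1:193510161-193510460 on the minus strand for Mir205hg.
Dapl1: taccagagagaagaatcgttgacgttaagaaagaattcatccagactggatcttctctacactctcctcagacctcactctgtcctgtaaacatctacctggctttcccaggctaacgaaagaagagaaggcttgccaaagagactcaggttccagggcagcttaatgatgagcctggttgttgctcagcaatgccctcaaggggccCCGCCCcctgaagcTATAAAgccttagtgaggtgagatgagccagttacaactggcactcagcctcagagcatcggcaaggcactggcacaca
Art4: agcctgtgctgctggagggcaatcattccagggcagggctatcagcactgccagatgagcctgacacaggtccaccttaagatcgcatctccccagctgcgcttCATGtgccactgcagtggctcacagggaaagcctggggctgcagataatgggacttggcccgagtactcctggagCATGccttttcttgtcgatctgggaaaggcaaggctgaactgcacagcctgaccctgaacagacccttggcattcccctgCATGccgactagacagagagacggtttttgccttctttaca
Mir205hg: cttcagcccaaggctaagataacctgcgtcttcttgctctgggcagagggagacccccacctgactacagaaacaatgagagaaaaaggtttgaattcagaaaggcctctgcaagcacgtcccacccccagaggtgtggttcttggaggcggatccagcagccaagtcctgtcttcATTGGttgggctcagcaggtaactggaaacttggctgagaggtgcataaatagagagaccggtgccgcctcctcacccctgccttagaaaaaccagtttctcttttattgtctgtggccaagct
The 3 regions shared no searched motif. Dapl1 has TATAAA 29 bases and a GC box 43 bases before its start, Art4 has 3 copies of CATG, and Mir205hg has CCAAT 74 bases before its start. A pair of CATG cores with 6 bases between them, each of which the single CATG search also finds, was in 0 of the 7 regions and in 0.712% of 32851 mouse start regions. CATG alone was in 3 of 7 (Art4, Cbr2 and Anxa8) against 61.1% of all, TATAAA in 2 of 7 (Dapl1 and Slco2a1, each 29 bases before the start) against 13.6%, CCAAT in 1 of 7 against 37.4%, GGGCGG in 2 of 7 (Dapl1 and Slco2a1) against 35.7% and TGANTCA in 0 of 7 against 7.81%. GC content was between 51.0% in Dapl1 and 68.7% in Slc34a2, with a median of 52.7% over all start regions.

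Trp63 itself, by the probe used in the fit, stood at log2 9.07, 9.73, 9.43 and 9.91 in cKO vagina pools 1 to 4, against 9.75, 9.57, 9.36 and 9.71 in cHet vagina pools and 4.54, 4.52, 4.60 and 4.75 in cHet uterus pools. The vaginal groups overlapped, and their difference was -0.06 (SE 0.17, limma adjusted p = 0.979). Another Trp63 probe, above background on 3 arrays and so not kept, differed by 0.06 for cKO minus cHet vagina and by -0.01 for cHet vagina minus uterus. The labels do not say which part of Trp63 is floxed, so the probes check neither the deletion nor the labels. Arrays within a group correlated at 0.972 to 0.991 across genes, and each array had 38.8% to 45.4% of its probes above background. The leading principal component (48.3% of the variance) set the uterus apart from the vaginal pools, and the next (14.8%) set replicates 1 and 2 apart from 3 and 4 within every group. Between cKO and cHet vagina 38 genes were called lower, 0.342% of those tested, and 6 higher, 0.0539%. The 10 members are among the 38 lower ones by the way they were chosen. In all 10, every cKO pool lay below every cHet vagina pool, which held for 2.65% of all genes. That count too rests on the contrast that chose the members, so it adds no support.

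The pattern of the 10 genes over the 3 groups was of 3 kinds. Dapl1 and Mir205hg had cKO means less than 2-fold over the uterus on this offset scale and cHet vagina means far above it, and Trim29, above background in 0 of 4 uterine pools, lost 64.9% of its measured organ difference on the log2 scale. Art4, Slco2a1 and Camk4 were at or under the level of the uterus in cKO vagina. Anxa8, Cbr2, Adam28 and Slc34a2 were at least 1.79-fold over the uterine level in cKO vagina and lost a smaller share. These kinds are a description of group means and not a test of groups of genes.

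**Figure D1:**
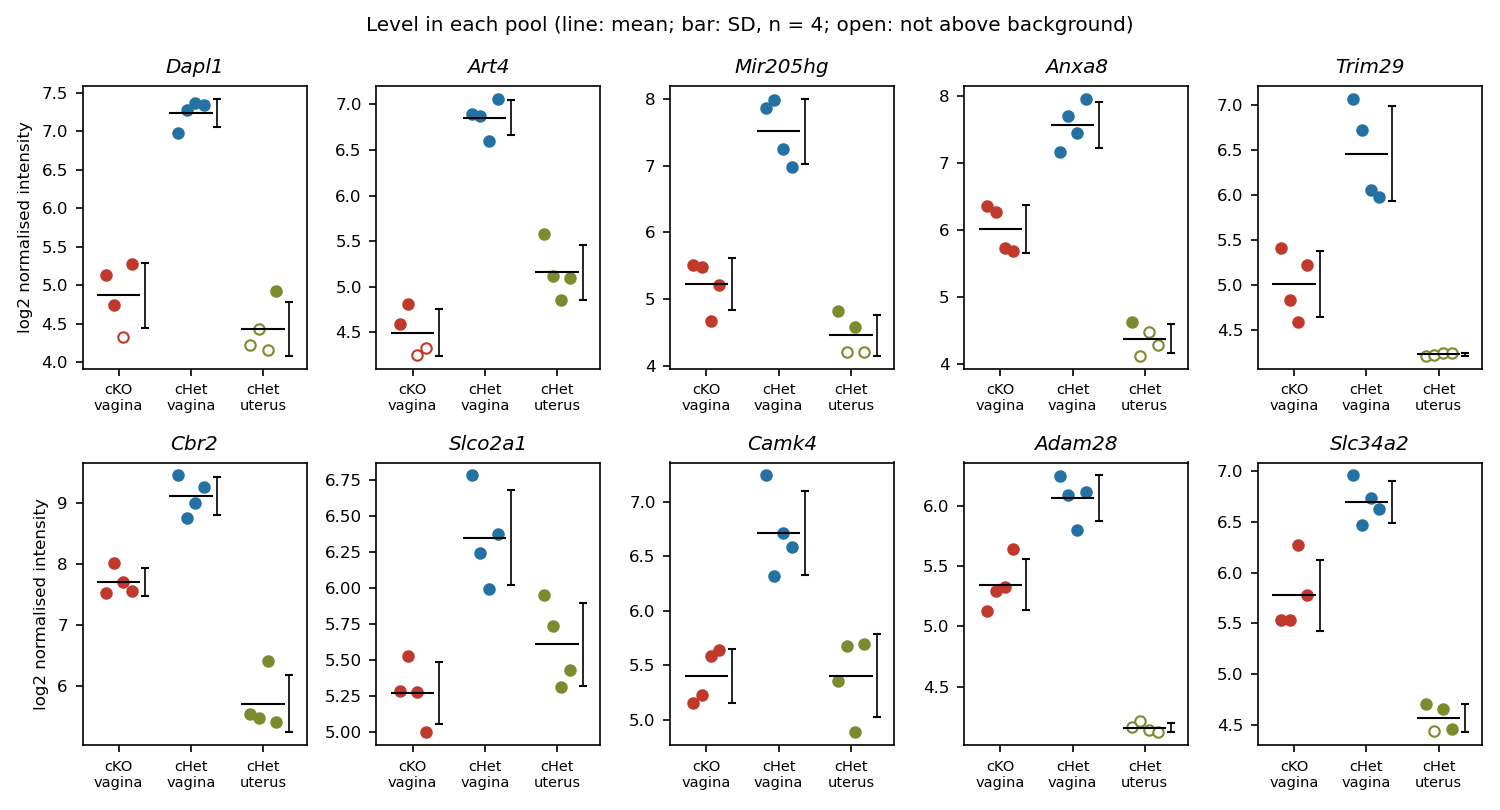
Level of each of the 10 genes on a log2 scale of normalised intensity in the 4 cKO vagina, 4 cHet vagina and 4 cHet uterus pools, with pools 1 to 4 from left to right, the group mean as a line and the SD as a bar. Open points were not above background. In each panel the 4 cKO vagina points lie under the 4 cHet vagina points, and Trim29 and Adam28 have open points in all 4 uterus pools.

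Among the epithelial genes, Dapl1 ranked 2 among all genes by the size of the lower level in cKO vagina. Its level was 5.13, 4.74, 4.32 and 5.27 in cKO vagina, against 6.97, 7.27, 7.37 and 7.34 in cHet vagina and 4.23, 4.43, 4.15 and 4.93 in cHet uterus. The cKO pools overlapped the uterine ones, and cKO pool 3 was the 1 pool of that group in which the probe was not above background, as it was not in 3 of 4 uterine pools. The mean was 4.87 ± 0.427 in cKO vagina and 7.24 ± 0.181 in cHet vagina (SD, n = 4), 5.17-fold lower in cKO. cHet vagina exceeded the uterus 6.99-fold (limma adjusted p = 7.86e-08), whereas cKO vagina exceeded it 1.35-fold (log2 0.43, 95% interval -0.0094 to 0.88, limma adjusted p = 0.181). With the dim uterine pools at the lowest signal of a probe above background, cHet vagina exceeded the uterus at least 6.09-fold. The fold of cKO vagina was then 1.18, which is no minimum, since cKO pool 3 was dim too.

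Mir205hg, the host of the microRNA printed above, stood at 5.51, 5.48, 4.67 and 5.22 in cKO vagina, against 7.86, 7.98, 7.24 and 6.97 in cHet vagina and 4.83, 4.21, 4.58 and 4.21 in cHet uterus. The cKO pools lay far under the cHet vagina pools, and cKO pool 3 lay within the range of the uterus, where 2 of 4 pools were above background. In cKO vagina the mean was 4.90-fold lower than in cHet vagina. cHet vagina exceeded the uterus 8.32-fold (limma adjusted p = 1.37e-07), and cKO vagina exceeded it 1.70-fold (limma adjusted p = 0.0346), a call that was lost in 10 of 24 alternative analyses. With the dim uterine pools at the lowest signal of a probe above background, these folds were at least 7.45 and at least 1.52. In both vaginal groups the pools 3 and 4 averaged lower than pools 1 and 2.

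Trim29 stood at 5.41, 4.83, 4.59 and 5.22 in cKO vagina, against 7.06, 6.72, 6.06 and 5.98 in cHet vagina, a 2.72-fold lower mean in cKO. In the uterus it was 4.22, 4.23, 4.25 and 4.24, above background in 0 of 4 pools, so folds over the uterus are bounds. cHet vagina was at least 3.85-fold higher than the uterus (limma adjusted p = 2.36e-06) and cKO vagina at least 1.42-fold higher (limma adjusted p = 0.0226). The bound sets the uterus at the lowest signal of a probe above background on each array. Both p values are of the measured differences, log2 2.22 for cHet and 0.78 for cKO vagina, and not of the bounds. The cKO call was lost in 6 of 24 alternatives, among them those without cKO pool 1 (adjusted p = 0.0805) and without cKO pool 4 (adjusted p = 0.0648). A second, dimmer probe was lower by 0.82 on the log2 scale in cKO than in cHet vagina, against 1.44 for the brighter one.

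Anxa8 stood at 6.36, 6.27, 5.72 and 5.68 in cKO vagina, against 7.15, 7.70, 7.45 and 7.95 in cHet vagina and 4.62, 4.12, 4.47 and 4.28 in cHet uterus. No pool of any group overlapped another group, and the probe was above background in 1 of 4 uterine pools. The mean was 2.94-fold lower in cKO than in cHet vagina, and it exceeded the uterus 3.10-fold in cKO vagina (limma adjusted p = 1.69e-05) and 9.12-fold in cHet vagina (limma adjusted p = 1.26e-08). With the dim uterine pools at the lowest signal of a probe above background, these folds were at least 2.75 and at least 8.07. A second probe was lower by 1.15 on the log2 scale in cKO vagina, against 1.55 for the first.

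Of the enzymes, Cbr2 was above background in all 12 pools. Its level was 7.52, 8.02, 7.70 and 7.55 in cKO vagina, against 9.45, 8.74, 9.0 and 9.26 in cHet vagina and 5.55, 5.49, 6.42 and 5.42 in cHet uterus. The 3 groups did not overlap, and uterus pool 3 lay apart from the other uterine pools. The mean was 7.70 ± 0.228 in cKO vagina, 9.11 ± 0.307 in cHet vagina and 5.72 ± 0.467 in uterus (SD, n = 4 each). Relative to the uterus it was 3.95-fold higher in cKO vagina (limma adjusted p = 5.47e-06) and 10.5-fold higher in cHet vagina (limma adjusted p = 1.43e-08).

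Art4 behaved differently from Cbr2, since its cKO level was under that of the uterus. It stood at 4.59, 4.81, 4.26 and 4.33 in cKO vagina, against 6.89, 6.87, 6.60 and 7.06 in cHet vagina and 5.58, 5.12, 4.85 and 5.09 in cHet uterus. Every cKO pool lay below every uterine pool, and the probe was above background in 2 of 4 cKO pools. The mean was 5.13-fold lower in cKO than in cHet vagina. cKO vagina was 1.58-fold lower than the uterus (log2 -0.66, limma adjusted p = 0.0122), which makes Art4 the 1 member called lower there, and cHet vagina was 3.24-fold higher than the uterus (limma adjusted p = 2.51e-06). The lower call was lost in 4 of 24 alternatives, with adjusted p between 0.0539 and 0.0956. It rests on the cKO arrays by whose low values Art4 was chosen.

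Camk4 had nearly the same mean in cKO vagina and in the uterus. Its level was 5.15, 5.23, 5.59 and 5.64 in cKO vagina, against 7.24, 6.32, 6.71 and 6.59 in cHet vagina and 5.35, 5.68, 4.89 and 5.70 in cHet uterus. cKO and uterine pools overlapped, and cHet vagina pool 1 was the highest. cKO vagina minus uterus was -0.0013 on the log2 scale (95% interval -0.45 to 0.45, limma adjusted p = 0.999), while cHet vagina exceeded the uterus 2.48-fold (limma adjusted p = 0.000265). The interval leaves room for a difference of up to 0.45 in either direction.

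Adam28 stood at 5.13, 5.30, 5.33 and 5.64 in cKO vagina, against 6.25, 6.09, 5.80 and 6.12 in cHet vagina and 4.17, 4.21, 4.14 and 4.13 in cHet uterus. It was above background in all 8 vaginal pools and in 0 of 4 uterine pools. cKO vagina was at least 1.79-fold higher than the uterus (limma adjusted p = 1.26e-05) and cHet vagina at least 2.94-fold higher (limma adjusted p = 6.79e-08). Both p values are of the measured differences, log2 1.19 for cKO and 1.91 for cHet vagina, and not of the bounds. With 1.65-fold between the vaginal groups Adam28 had the smallest such difference of the 10 on the log2 scale, and cKO pool 4 came close to cHet vagina pool 3.

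The transporters differed from each other. Slco2a1 stood at 5.28, 5.52, 5.28 and 5.00 in cKO vagina, against 6.78, 6.24, 5.99 and 6.37 in cHet vagina and 5.95, 5.74, 5.31 and 5.43 in cHet uterus. The cKO pools overlapped the uterine ones. cHet vagina exceeded the uterus 1.67-fold (limma adjusted p = 0.00917), the smallest organ difference of the 10 on the log2 scale, and cKO vagina minus uterus was -0.34 on the log2 scale (95% interval -0.73 to 0.06, limma adjusted p = 0.251). The mean was 2.11-fold lower in cKO than in cHet vagina.

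Slc34a2 stood at 5.53, 5.53, 6.27 and 5.78 in cKO vagina, against 6.96, 6.46, 6.73 and 6.62 in cHet vagina and 4.71, 4.44, 4.66 and 4.45 in cHet uterus. The 3 groups did not overlap, cKO pool 3 came closest to the cHet vagina pools, and 3 of 4 uterine pools were above background. It was 2.32-fold higher than the uterus in cKO vagina (limma adjusted p = 7.70e-05) and 4.38-fold higher in cHet vagina (limma adjusted p = 1.82e-07), with a 1.89-fold lower mean in cKO than in cHet vagina. With the dim uterine pool at the lowest signal of a probe above background, the folds over the uterus were at least 2.25 and at least 4.25.

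Taking the 10 genes together, all 10 were called higher in cHet vagina than in cHet uterus, where 9.46% of all genes were called higher and 18.6% in either direction. Their median difference was 2.18 on the log2 scale, beside -0.015 over all genes. In all 10, every cHet vagina pool lay above every uterine pool, which held for 10.8% of all genes. In cKO vagina against cHet uterus 6 members were called higher, where 8.93% of all genes were, and 1 was called lower, where 9.43% were. The median difference of the members was there 0.77, beside -0.017 over all genes. In 5 of the 10 (Anxa8, Trim29, Cbr2, Adam28 and Slc34a2) every cKO pool lay above every uterine pool, which held for 10.5% of all genes. The first comparison shares the cHet vagina arrays and the other the cKO vagina arrays with the contrast that chose the genes. Neither count is therefore independent of that choice.

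**Figure D2:**
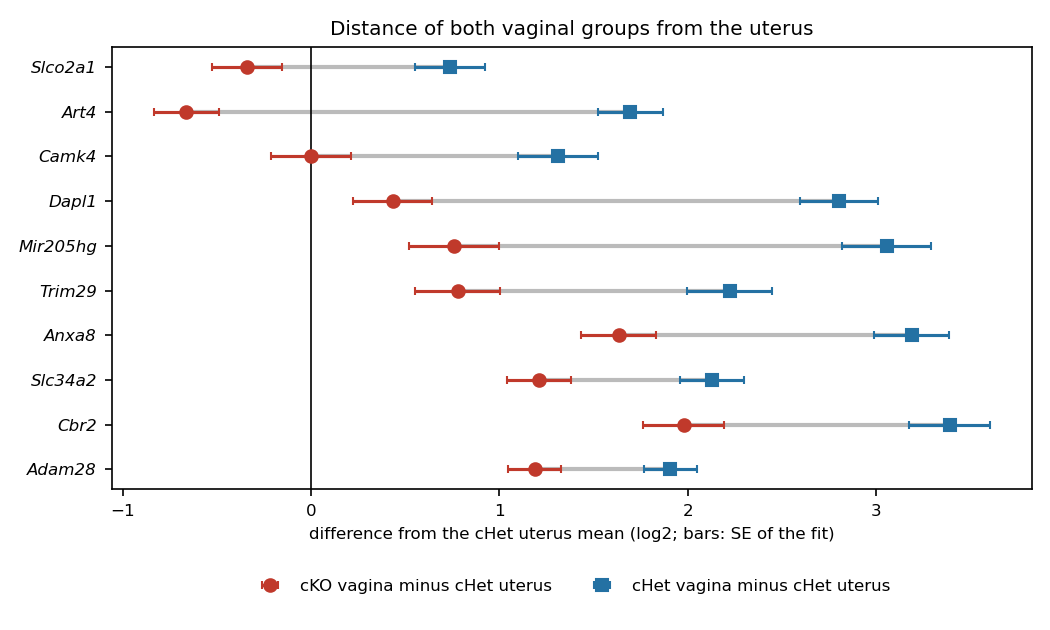
Difference of cKO vagina (circles) and of cHet vagina (squares) from the cHet uterus mean in log2 units, with the SE of the fit as bars, for the 10 genes. The cHet vagina squares lie between 0.74 for Slco2a1 and 3.39 for Cbr2, and the cKO circles between -0.66 for Art4 and 1.98 for Cbr2.

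The share of the vagina minus uterus difference that was lost in cKO vagina is the drop of the cKO mean under the cHet vagina mean, divided by the organ difference of cHet mice. It is a description, since the drop chose the genes. On the log2 scale it was 37.7 ± 6.42% for Adam28, 41.6 ± 5.52% for Cbr2, 43.1 ± 6.97% for Slc34a2 and 48.8 ± 5.39% for Anxa8 (± SE). It was 64.9 ± 8.92% for Trim29, 75.1 ± 7.05% for Mir205hg and 84.5 ± 6.95% for Dapl1. For Camk4, Art4 and Slco2a1 it was 100.1 ± 16.2%, 139 ± 12.7% and 146 ± 32.4%, where a share over 100% means a cKO mean under that of the uterus. Since Trim29 and Adam28 were not above background in the uterus, their uterine level has only an upper bound, and with the uterus at that bound the share is at most 74.2% for Trim29 and 46.2% for Adam28. Dapl1, Mir205hg, Anxa8 and Slc34a2 were dim in some uterine pools. With those pools at the bound, their shares are at most 90.9%, 79.2%, 51.6% and 43.9%. In the order of the log2 shares, the neighbours up to Anxa8 lay within 1 SE of each other, and so did Art4 and Slco2a1.

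On background-corrected linear intensity the shares were 69.0% for Anxa8, 64.1% for Cbr2, 50.3% for Slc34a2 and 42.5% for Adam28. They were 76.3% for Trim29, 87.6% for Mir205hg, 92.0% for Dapl1 and 88.5% for Camk4, and 112% for Art4 and 105% for Slco2a1. The median over the 10 was 70.0% on the log2 scale and 81.9% on the linear scale. By the brightest probe of each gene, Adam28 had the lowest share, and Art4 and Slco2a1 shares over 100%, on both scales. These traits did not hold for every probe. A dimmer Adam28 probe had log2 differences of -0.48 for cKO minus cHet vagina and 0.69 for cHet vagina minus uterus, a larger share. The further Slco2a1 probes that passed the filter had cKO vagina minus uterus at -0.05 and 0.15.

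**Figure D3:**
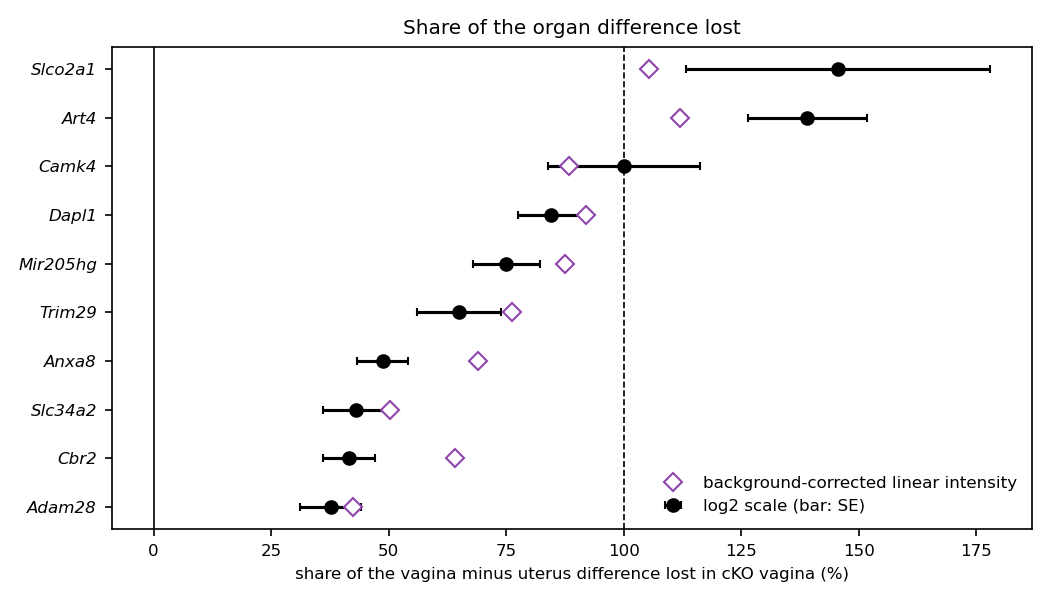
Share of the cHet vagina minus cHet uterus difference lost in cKO vagina, in percent, for the brightest probe of each of the 10 genes. Filled circles with SE bars are on the log2 scale and open diamonds on background-corrected linear intensity. The dashed line marks 100%, where cKO vagina equals the uterus. Art4 and Slco2a1 lie beyond it on both scales, and Slco2a1 and Art4 move most between scales.

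The 10 genes were read by 21 probes, of which 15 passed the filter on low values and 4 were never above background. Dapl1, Art4, Mir205hg, Cbr2 and Slc34a2 had 1 probe each. The further probes that passed were all lower in cKO than in cHet vagina by a smaller log2 difference than the brightest probe of their gene, at -1.15 for Anxa8, -0.82 for Trim29, -0.48 for Adam28, and -0.52 and -0.31 for Slco2a1. Another Slco2a1 probe, above background on 2 arrays, differed by 0.06. Both other Camk4 probes were never above background and differed by -0.02 and -0.01, so the Camk4 values rest on 1 probe. Of the remaining Adam28 probes 1 was above background on 3 arrays and differed by -0.22, and 2 never were.

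**Figure D4:**
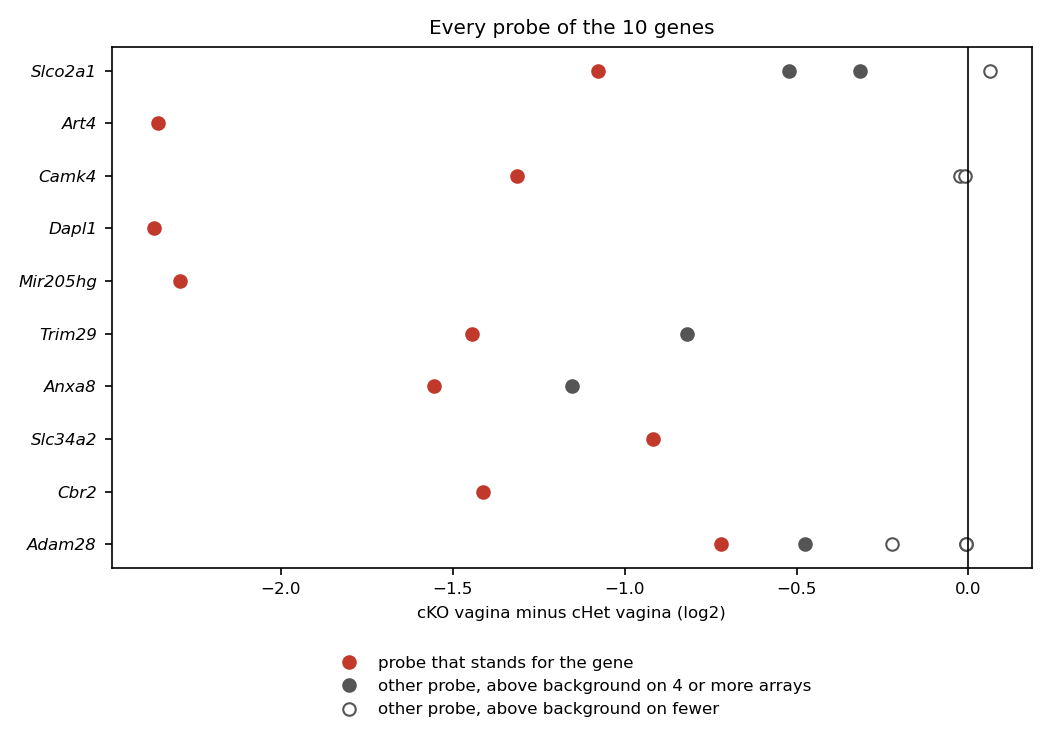
Difference of cKO vagina minus cHet vagina in log2 units for each of the 21 probes of the 10 genes. Red points stand for the gene in the fit, grey points are other probes above background on 4 or more arrays, and open points are probes above background on fewer. Among filled points all lie under 0, while open points lie between -0.22 and 0.06.

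Replicates 1 and 2 lay apart from replicates 3 and 4, so the differences were taken within each set. cKO minus cHet vagina was negative in both sets for all 10 genes, as it must be where every cKO pool lies below every cHet vagina pool. The sign within sets is therefore no separate check, and the sizes are given as a description. It was -2.19 and -2.55 for Dapl1 in replicates 1 and 2 and in replicates 3 and 4, -2.18 and -2.54 for Art4, and -2.42 and -2.16 for Mir205hg. The sets differed most for Anxa8, at -1.11 in replicates 1 and 2 and -2.0 in replicates 3 and 4, and for Trim29, at -1.77 and -1.11. Adam28 gave -0.96 and -0.48. By limma the interaction of set and genotype was called for 0 of the 10 genes and for 0% of all genes. Without adjustment 998 genes passed 0.05, among them 1 member, Anxa8, with an interaction of -0.89 (limma adjusted p = 0.504). What the numbers 1 to 4 share is not given in the labels.

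Averaged over the 3 groups, Mir205hg was lower in replicates 3 and 4 than in 1 and 2 by 0.50 on the log2 scale (limma adjusted p = 0.0389), as 1 of the 10 members called between sets, where 12.4% of all genes were. The call was lost in 12 of 20 alternatives. Slco2a1 differed by -0.36 (adjusted p = 0.0639), Trim29 by -0.36 (adjusted p = 0.151) and Art4 by -0.28 (adjusted p = 0.142). cHet vagina minus uterus was positive within both sets for all 10 genes, at 3.40 and 2.71 for Mir205hg and at 2.67 and 1.77 for Trim29. That sign too was fixed, since every cHet vagina pool lay above every uterine pool in all 10.

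No 1 pool carried the low cKO values. Of the 10 genes, cKO pools 1 to 4 held the lowest value of their group in 3, 1, 4 and 2 genes, and the mean level over the 10 was 5.56, 5.57, 5.37 and 5.53. In cHet vagina pool 1 held the highest value for 6 of the 10, and the mean levels were 7.26, 7.04, 6.89 and 7.03. In the uterus they were 4.92, 4.77, 4.77 and 4.79. The genes did not move as 1 block within groups. After group means were removed, the correlation over the 12 pools, as a description, was 0.75 for Mir205hg with Trim29 and 0.74 for Art4 with Slco2a1, but -0.77 for Anxa8 with Camk4 and -0.66 for Dapl1 with Slc34a2. Pools with the same number may share handling, so these pairs of values are not independent of the set.

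Over all 12 arrays, where the 3 groups set most of the correlation, the non-member genes with the most similar pattern were named for each member. For Mir205hg they were Krt17 (r = 0.975), Tnfaip2 (0.968) and Ugt1a10 (0.964), and for Trim29 they were Vav3 (0.973), Ppl (0.970) and Sox21 (0.969). Krt17 encodes a keratin of stratified epithelium and Ppl the desmosomal plakin periplakin. For Dapl1 they were Sncg (0.958), Ugt1a6b (0.950) and Col17a1 (0.946), the last a collagen of hemidesmosomes, and for Anxa8 they were Gpx2 (0.965), Tmprss4 (0.961) and Pak3 (0.959). Probes for single Ugt1a genes may read their neighbours too, since these genes have exons in common.

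Cbr2 was most like Tmprss7 (0.982), Upk2 (0.977) and Sema4a (0.977), Adam28 most like Upk2 (0.980), Sema4a (0.977) and Rasgrf1 (0.977), and Slc34a2 most like Sema4a (0.971), Ankrd6 (0.965) and Pdp2 (0.963). Sema4a, which encodes a membrane semaphorin, was thus named for 3 members, and Upk2, which encodes a uroplakin of urothelium, for 2. For the members at or under the uterine level the likeness was weaker. Art4 was most like Itprid2 (0.931), Ugt1a6b (0.905) and E2f3 (0.882), Slco2a1 most like Itprid2 (0.908), P2ry1 (0.900) and Lamb3 (0.895), and Camk4 most like Alg10b (0.917), E2f3 (0.916) and Rhov (0.896).

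Genes related to the 10 by family or pathway were read from 10 lists. Of their 99 non-member genes on the array, 81 were tested. Between cKO and cHet vagina limma called 0 of the 81 higher and 0 lower, where 0.0539% and 0.342% of all genes were called. Without adjustment 11 of the 81 had p under 0.05, 7 of them lower, beside 786 of all 11123 genes. The median difference of the 81 was -0.0014. Between cHet vagina and uterus 7 of the 81 were called higher and 7 lower, and between cKO vagina and uterus 9 were called higher and 7 lower. Over all genes 9.46% were called higher and 9.15% lower in cHet vagina than in uterus, and 8.93% higher and 9.43% lower in cKO vagina than in uterus.

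Of 6 reported targets of miR-205, 0 were called between cKO and cHet vagina. Zeb1, which encodes a repressor of epithelial genes, differed by -0.17 (SE 0.15, limma adjusted p = 0.904), and its relative Zeb2 by -0.28 (SE 0.38, limma adjusted p = 0.947). Phlda3, an inhibitor of Akt signalling, had the lowest adjusted p of the 81 genes, at 0.151 with a difference of -0.73 (SE 0.19, limma). Inppl1, which encodes a phosphoinositide phosphatase, differed by 0.40 (limma adjusted p = 0.562). Against the uterus, cHet vagina was higher in Frk by 1.38 on the log2 scale (limma adjusted p = 6.58e-05), a gene of a Src-like kinase, and lower in Inpp4b by 0.87, Inppl1 by 0.62 and Phlda3 by 0.62 (limma adjusted p = 0.000571, 0.01 and 0.0308).

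In the prostaglandin list, with 10 tested genes beside the transporter gene Slco2a1, 0 were called between cKO and cHet vagina. An unadjusted p under 0.05 was found for 4 of the 10, beside 786 of all 11123 genes. Among these 4, Abcc4, an exporter of prostaglandins among other substrates, differed by -0.47 (SE 0.15, limma adjusted p = 0.347). Hpgd, the enzyme that inactivates prostaglandins, differed by -0.59 (limma adjusted p = 0.687). Against the uterus, cHet vagina was higher in Abcc4 by 2.71 (limma adjusted p = 4.48e-09) and lower in Ptgds, a prostaglandin D synthase, by 2.28 (limma adjusted p = 3.13e-08) and in Ptgis, the prostacyclin synthase, by 0.93 (limma adjusted p = 0.00177).

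In the other lists the calls lay between organs, with 0 between cKO and cHet vagina. Of 3 other carbonyl reductase genes Cbr3 was the 1 called between organs, higher in cHet vagina than in uterus by 1.40 (limma adjusted p = 3.42e-06). Cbr3 differed by -0.32 between cKO and cHet vagina (SE 0.15, limma adjusted p = 0.694). Trim2, a ubiquitin ligase gene, was higher in cHet vagina than in uterus by 1.71 (limma adjusted p = 7.14e-07), with -0.16 between the vaginal groups (limma adjusted p = 0.918), as 1 of 24 tested TRIM genes. Of 9 other annexin genes Anxa2 was called between organs, at 0.70 (limma adjusted p = 0.000451), with -0.28 between the vaginal groups (limma adjusted p = 0.628). Of 8 other ADAM genes Adam9 was called between organs, at 0.93 (limma adjusted p = 0.000963), with 0.19 between the vaginal groups. Dap, the relative of Dapl1, was higher in cHet vagina than in uterus by 0.57 (limma adjusted p = 0.0147), and Dapk1, a death-associated protein kinase gene, lower by 0.67 (limma adjusted p = 0.00631). In the calmodulin kinase list Camk2a was lower in cHet vagina than in uterus by 0.58 (limma adjusted p = 0.0255), the 1 call among 12. Neither the 2 ADP-ribosyltransferase genes nor the 3 phosphate carrier genes tested had a call between organs.

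Markers of cell types that a whole vagina can hold were read beside these values. The summed background-corrected intensity of 9 general epithelial markers was 6746 to 11462 in cKO vagina, 7986 to 12611 in cHet vagina and 3221 to 4339 in uterus, with 0 of 9 called between the vaginal groups by limma. That of 8 tested markers of stratified epithelium was 2226 to 4851 in cKO vagina, 7626 to 14523 in cHet vagina and 982 to 1115 in uterus, and 4 of the 8 were called lower in cKO, which were Krt17, Sfn, Col17a1 and Lamb3. The 8 include the targeted gene Trp63, which is part of these sums and differed by -0.06 on the log2 scale between the vaginal groups. In these bulk samples fewer cells of a type and less RNA per cell cannot be told apart. The part of the stratified markers in the values of the 10 genes was not tested.

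Among 5 urothelial markers Upk2 was called lower in cKO vagina, and the summed intensity was 304 to 700 in cKO vagina, 675 to 1014 in cHet vagina and 815 to 1502 in uterus. Between organs these markers were split, with 3 called higher and 2 lower in cHet vagina than in uterus. Their mean log2 level ordered the organs the other way, at 5.77 to 6.65 in cKO vagina, 6.65 to 7.31 in cHet vagina and 6.01 to 6.52 in uterus. Of 4 tested red blood cell markers, 0 were called between the vaginal groups and 1 was called lower in cHet vagina than in uterus. These markers summed to 9393 to 30959 in cKO vagina, 7098 to 9757 in cHet vagina and 14756 to 22249 in uterus. Their mean log2 level was 9.12 in cKO pool 3, against 6.97 to 7.21 in the other cKO pools. Skeletal muscle markers too were highest in cKO pool 3, at 7.45 against 4.82 to 6.25. That pool had the lowest level of its group for 4 of the 10 genes, and without it the difference of cKO minus cHet vagina was between -2.28 for Art4 and -0.71 for Adam28. Of 6 lymphocyte markers 5 did not pass the filter on low values, and the 1 tested summed to 27 to 42.6 in cKO vagina and 20.7 to 39.3 in cHet vagina. Macrophage markers summed to 358.6 to 640.3 in cKO vagina and 299.4 to 483.1 in cHet vagina, with 0 of 7 called between these groups.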

How the data were processed

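Linear intensities, 1 for each probe on each array, were taken from the deposited table. The mean of an array ran from 248.3 to 252.2, so the deposited intensities had been scaled by the authors to a common mean; the method is not stated in these sources. Per the labels' protocols, RNA was extracted with Trizol and cleaned on columns, and biotinylated cRNA was made with a MessageAmp kit. Another 24 columns of per-sample values (12 signals) have names found in none of the labels. They were left out, and their detection values served for no filter.

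The background of each array was the mode of its intensities (69.1 to 90.8), with an SD from the values below it (2.29 to 2.75). Intensities were corrected with normexp of limma 3.58.1 in R 4.3.3, raised by an offset of 16, quantile normalized and log2 transformed. Above background means over the 99% quantile of an array's background, and probes above it on at least 4 of 12 arrays were kept. Of 20615 kept probes 17565 had 1 symbol, and the brightest probe was used for each of 11123 genes (4365 had several kept probes). In the platform annotation 34885 probes had 1 symbol, 18 had several and 10378 had none, and 78 annotated probes had no match in the gene table (GRCm38.p6). The number of arrays limits the precision.

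For the differences between groups, limma's lmFit and eBayes were run on the 3 group means over all 12 arrays (15.8 degrees of freedom). The set term came from a fit of the group means plus a term for replicates 3 and 4. The interaction came from a fit with a mean for each group and set. Every adjusted p is limma's two-sided one, and a gene was called under 0.05. Adjustment was by Benjamini-Hochberg over the genes tested, 11123 except where an alternative changed the filter. The members and gene lists were chosen with earlier results of these data known. All 10 members and Trp63 were named, and for each list the called genes, at most 4 by size, or else the brightest one; a few others were chosen after their values were seen (Zeb2, Hpgd and the uncalled values of Phlda3 and Inppl1). For likeness the 3 genes with the highest Pearson correlation were named. The fit was tested on simulated data with known answers before use.

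Each group has replicates numbered 1 to 4. After removal of group means, same-numbered arrays correlated at 0.118 to 0.431 between cHet vagina and uterus, and all 4 pairs passed 0.1. The numbers may thus pair these pools, on the data alone. Between cKO and cHet vagina the range was 0.066 to 0.492 and between cKO vagina and uterus 0.074 to 0.309, over 0.1 in 3 of 4 pairs each. The fit used no pairs, and a replicate block was one of the alternatives, beside background, offset, normalization, filter, probe rule, prior, groups fitted, sets and leaving out each pool.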

Additional observations from a re-analysis of the deposited data

Results flagged for a closer look

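Cbr2 in cHet uterus pool 3 stood at log2 6.42, apart from the other uterine pools at 5.42, 5.49 and 5.55. Its gap to the nearest of them was 0.877 of the range of the 4 pools, above Dixon's 95% critical value for 4 values. All 10 genes were looked at in all 3 groups, and chance alone takes about 1 in 20 groups past this value. The pool still lay under all cKO and cHet vagina pools.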

How the results depend on the processing

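No direction of a called value turned in any alternative. All 10 members were called higher in cHet vagina than in uterus in 23 of 24 alternatives. The exception was replicates 1 and 2 alone, where Slco2a1 was at 0.67 (limma adjusted p = 0.0968). In cKO vagina against uterus Adam28, Anxa8, Cbr2 and Slc34a2 were called in 24 of 24, Art4 in 20 (adjusted p 0.00317 to 0.0956), Trim29 in 18 (0.00476 to 0.226), Mir205hg in 14 (0.00486 to 0.290) and Dapl1 in 1, without cKO pool 3 (adjusted p = 0.0430). The called members there were 4 instead of 7 without background correction and with an offset of 50, and 5 to 8 with 1 pool left out.

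The cKO against cHet vagina fit called 44 genes, but 27 without the filter on dim probes, 71 in replicates 1 and 2 alone, 14 in replicates 3 and 4 alone, 94 with the sets as a block and 77 with the replicate block. Leaving out 1 pool gave 21 to 46, with 21 without cHet vagina pool 1 and 23 without cHet vagina pool 2 or cKO pool 1. In replicates 1 and 2 alone 1329 genes were called for cHet vagina against uterus, instead of 2070, and 1308 for cKO vagina against uterus, instead of 2042. The replicate block changed no member's call between organs. Between sets it called 2 members, adding Slco2a1, whereas 0 were called without background correction, without quantile normalization or without the filter, and 0 to 1 with 1 pool left out. Called genes between sets ran from 824 to 1500, the lowest without cHet vagina pool 3, and for the interaction from 0 to 32, with 32 without cKO pool 4 and 2 without cHet vagina pool 2.

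Counted over the related genes in each alternative, a count chosen after the data were seen, Phlda3 was the 1 gene called between cKO and cHet vagina, in replicates 1 and 2 alone (-1.21, limma adjusted p = 0.0377). The median share lost was 70.0%, and 81.9% on linear intensity, 78.4% without background correction and 77.2% with an offset of 50, with 63.8% to 74.6% when 1 pool was left out. Without quantile normalization the median of all genes shifted to 0.116 between cKO and cHet vagina and to 0.173 between cKO vagina and uterus. There 1694 genes were called higher and 586 lower in cKO vagina than in uterus, instead of 993 and 1049, 1125 higher and 700 lower in cHet vagina than in uterus, instead of 1052 and 1018, and 11 higher and 20 lower in cKO than in cHet vagina, instead of 6 and 38. Between sets 633 genes were called higher and 321 lower there, instead of 609 and 768. The causes of these changes were not tested. The set term and the interaction have no value within a set or with the sets as a block.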
